A study of Mus musculus with 47 samples.

Results

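The step from the monocyte-dendritic cell progenitor (MDP) to the precursor committed to type 1 classical dendritic cells (pre-cDC1) was measured in 2 settings, in Flt3 ligand culture and in bone marrow, and the comparison described here is the difference between the 2 steps. It rests on 12 of the 47 libraries of the series, chosen by their titles, with 3 libraries in each of 4 groups: cultured MDP, cultured pre-cDC1, MDP taken directly from marrow and pre-cDC1 taken directly from marrow. All 4 groups were wild type mouse cells with bone marrow as the source tissue, and none carried the Irf8 enhancer deletions or the retroviruses used elsewhere in the series. Strain, sex and age of the mice are not given in the sources used here, and neither is the sorting gate of any group. The series text speaks of biological duplicates, while the titles number 3 replicates a group, and neither says which libraries share an animal or a culture, so that each p here reflects variation among libraries that may in part be technical.

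Dendritic cells arise from marrow progenitors under the cytokine Flt3 ligand. The MDP still expresses receptors for stem cell factor (Kit), M-CSF (Csf1r) and Flt3 ligand (Flt3), and gives rise to monocytes as well as dendritic cells. Commitment to the cDC1 fate, the lineage that cross-presents antigen to CD8 T cells, depends on the transcription factor IRF8 and its partner BATF3, on ID2, an inhibitor of E proteins, and on NFIL3, which acts against ZEB2, a repressor that opposes the cDC1 fate. The sister lineages are cDC2, which use IRF4 and KLF4, and plasmacytoid dendritic cells (pDC), which use the E protein TCF4 with RUNX2, SPIB and BCL11A. Culture with Flt3 ligand is the usual source of such cells in numbers, and the marrow populations are the natural counterpart.

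Each step is given as a log2 fold change of pre-cDC1 over MDP, and the interaction is the culture step minus the marrow step. A gene is said to be called when its adjusted p, from edgeR's quasi-likelihood test with Benjamini-Hochberg adjustment over all 12043 genes tested, was below 0.05. A called interaction below 0 means that the gene rose less, or fell more, from MDP to pre-cDC1 in culture than in marrow. It says nothing by itself of which source had the higher level. Levels are library-size normalised counts (CPM), given for replicates 1, 2 and 3 in that order.

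Library totals ran from 14761801 to 43084069 expected counts, the lowest in marrow pre-cDC1 replicate 1 and the highest in marrow MDP replicate 1. Log CPM of libraries within a group correlated at 0.953 to 0.982 across genes, which are not independent replicates. Many genes were at 0 in all 3 libraries of 1 group while present elsewhere: 57 genes of at least 10 CPM in another group were at 0 in cultured pre-cDC1, 68 in marrow MDP, 23 in marrow pre-cDC1 and 15 in cultured MDP. For such genes a fold is given as a lower bound against 3 counts over the group, a floor of 0.0279 to 0.0447 CPM.

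The labels were set beside markers of the cells named. The 6 MDP markers Kit, Flt3, Csf1r, Cx3cr1, Cd34 and Irf8 were present in every MDP library. Their sum was 2087 to 2305 CPM in cultured MDP and 3743 to 4076 CPM in cultured pre-cDC1. Marrow MDP (2438 to 2929 CPM) and marrow pre-cDC1 (1948 to 3187 CPM) overlapped. Irf8, which also directs cDC1 commitment, made up most of that sum. Its means in MDP and pre-cDC1 were 1483 and 3409 CPM in culture and 1458 and 1997 CPM in marrow. The sum therefore cannot show whether the other markers marked the MDP stage. Of the 6 markers, 3 rose and 3 fell in culture, and 2 rose and 2 fell in marrow. Of the pre-cDC1 markers, Zbtb46, a transcription factor of classical dendritic cells, rose in both sources, and so did Clec9a, a receptor for dead cells on cDC1 and their precursors. Xcr1, the chemokine receptor that marks cDC1, was at 43.8, 39.3 and 38.2 CPM in cultured pre-cDC1 but at 1.304, 0.258 and 0.809 CPM in marrow pre-cDC1, overlapping the MDP libraries. The summed level of the 23 cDC1 identity genes was 10300 to 11230 CPM in cultured pre-cDC1 and 2656 to 4137 CPM in marrow pre-cDC1, the highest value there being replicate 3. In the same marrow pre-cDC1 libraries 16 pDC genes summed to 2511 to 3192 CPM, above all other groups, while cultured pre-cDC1 had 401.4 to 635.0 CPM. These levels move with several results below. Their part in those results was not tested, and in bulk RNA fewer cells of a type and less RNA per cell cannot be told apart.

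**Figure D1:**
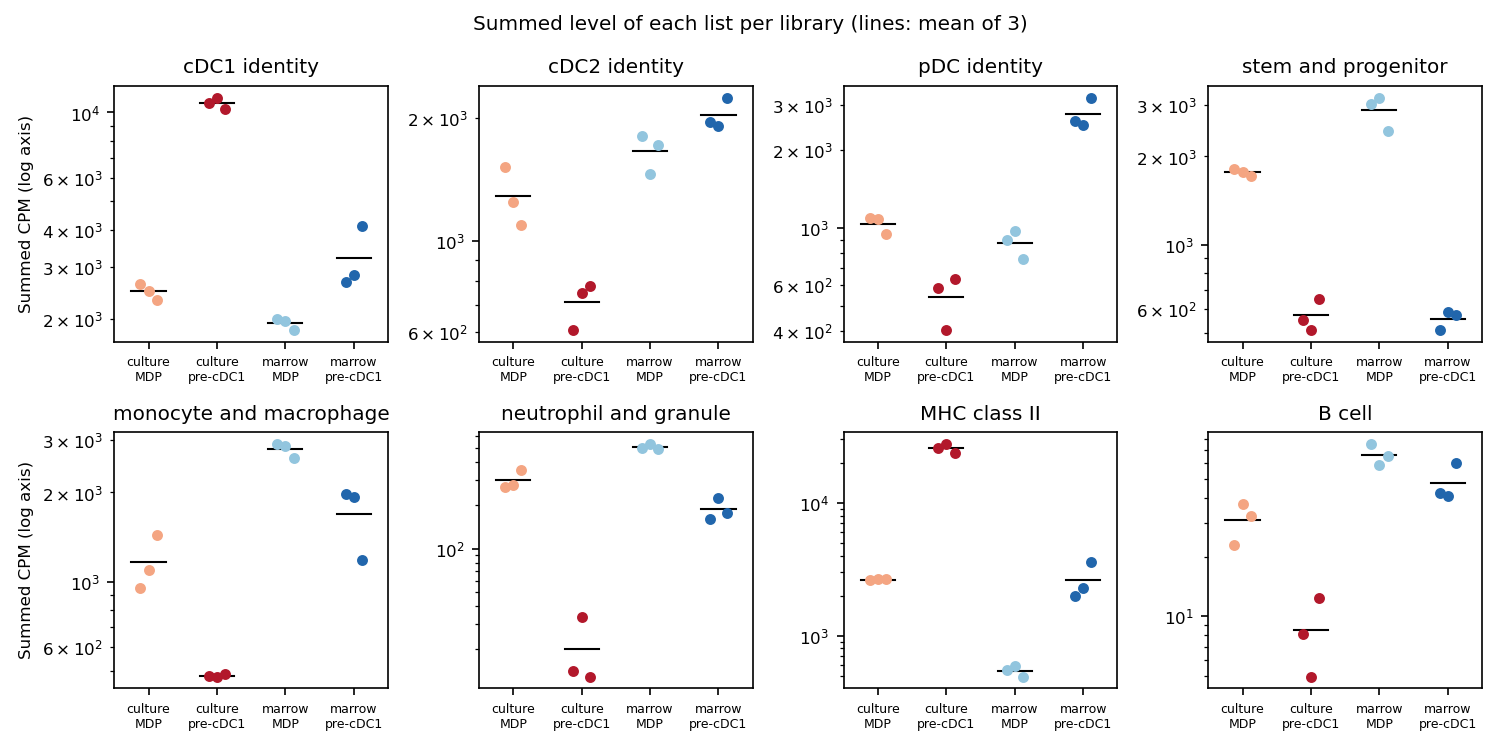
Summed CPM of the members of 8 gene lists in each of the 12 libraries, on a log axis. Each point is 1 library and each line the mean of 3; the cDC1 genes are highest in cultured pre-cDC1 (10300 to 11230 CPM), the pDC genes in marrow pre-cDC1 (2511 to 3192 CPM).

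The interaction was called for 1376 of 12043 genes (11.4%), with 576 higher in the culture step (4.78%) and 800 lower (6.64%). These shares are the background for each count of list members called in the interaction below. The culture step alone called 2801 genes (23.3%), of which 1347 rose (11.2%) and 1454 fell (12.1%). The marrow step called 4173 (34.7%), of which 2178 rose (18.1%) and 1995 fell (16.6%). The 3 libraries of one stage lay wholly above or below those of the other for 47.8% of genes in culture and 45.9% in marrow, the background for each statement below on overlap. Genes called in both steps mostly shared their direction: of these 1642 genes 1542, or 93.9%, moved the same way, 820 up and 722 down. Read from either side, 58.6% of the genes called in the culture step were also called in the marrow step, and 39.3% of those called in the marrow step in the culture step. Over all genes tested the median log2 change was -0.03 for the culture step, 0.02 for the marrow step and -0.06 for the interaction. The steps correlated across genes at Pearson r = 0.46 and Spearman rho = 0.50, a description over genes that share the same libraries.

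The called interactions were mostly a change in 1 source beside none called in the other. Of the 576 genes higher in the culture step, 316 (54.9%) fell in marrow with no call in culture, and 136 (23.6%) rose in culture with no call in marrow. Of the 800 lower ones, 351 (43.9%) rose in marrow without a call in culture and 189 (23.6%) fell in culture without a call in marrow. Another 129 rose in both sources and rose less in culture. In 100 genes (0.83% of those tested) both steps were called in opposite directions. The count of 1376 was 861 without cultured MDP replicate 2 and 2409 without replicate 3 of both marrow groups.

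The same difference can be read at each stage as culture against marrow, in the same fit. Between cultured and marrow MDP 997 genes were called (8.28%), 648 of them higher in culture (5.38%) and 349 lower (2.9%). Between cultured and marrow pre-cDC1 2634 were called (21.9%), nearly equal in direction with 1283 higher (10.7%) and 1351 lower (11.2%) in culture. For 417 of the 576 genes with a higher culture step (72.4%) the sources were called different at the pre-cDC1 stage alone, with culture higher. The same held in the other direction for 453 of the 800 lower genes (56.6%). In another 166 of the 800 (20.8%) the sources were called different at the MDP stage alone, with culture higher. In 52 more, culture was higher at the MDP stage and lower at the pre-cDC1 stage, and in 30 it was higher at both.

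**Figure D2:**
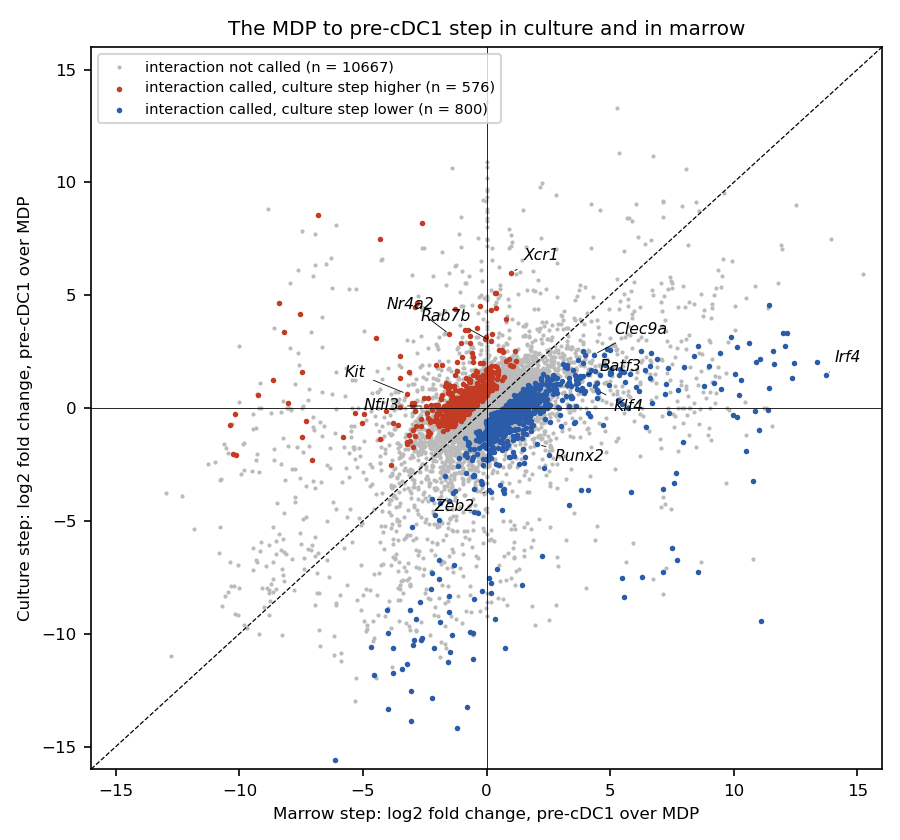
Each point is 1 of 12043 genes, with the marrow step on the horizontal and the culture step on the vertical axis (log2 fold change, pre-cDC1 over MDP); red and blue mark the 576 and 800 genes whose interaction was called and the dashed line marks equal steps. Most called genes lie near 0 on one of the 2 axes; points beyond about 8 on either axis are mostly genes at 0 counts in a group, whose fitted value depends on the prior count.

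Most transcription factors of the dendritic cell lineages had a called interaction, nearly all of them lower in the culture step. Of 28 such factors tested the interaction was called for 16, with 14 lower in the culture step and 2 higher, beside 6.64% and 4.78% of all genes. The median interaction over the 28 was -0.88. In culture 11 of them rose and 7 fell, against 17 and 5 in marrow. Without marrow pre-cDC1 replicate 3 the count of higher factors was 4.

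Irf8 (chr8:120736358-120756694, GRCm38.p6), which directs cDC1 commitment, was at 1606, 1487 and 1355 CPM in cultured MDP and 3267, 3394 and 3566 in cultured pre-cDC1. In marrow it was at 1537, 1507 and 1329 in MDP and 1517, 1632 and 2844 in pre-cDC1. The culture groups were separate, while 1 of the marrow pre-cDC1 libraries lay within the range of marrow MDP and replicate 3 stood far above both others. The culture step was 1.24, SE 0.20, adjusted p = 0.00135, and the marrow step 0.45, SE 0.20, adjusted p = 0.101. The interaction missed the threshold (0.80, SE 0.28, adjusted p = 0.0905), and without marrow pre-cDC1 replicate 3 it was called (1.12, adjusted p = 0.00144).

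Batf3, the partner of IRF8 in cDC1, was at 6.46, 6.32 and 5.58 CPM in cultured MDP and 15.5, 17.3 and 15.6 in cultured pre-cDC1. The marrow values were 0.227, 0.417 and 0.515 in MDP and 4.802, 7.57 and 4.88 in pre-cDC1. Batf3 rose in both sources without overlap of the libraries, and the marrow pre-cDC1 only reached the level that cultured MDP already had. Its interaction was -2.46, SE 0.44, adjusted p = 0.0063. Id2 was similar in form, with means of 32.5 and 61.6 CPM across the culture step and 6.696 and 22.2 across the marrow step, but its interaction was not called (-0.76, SE 0.29, adjusted p = 0.122). Without marrow pre-cDC1 replicate 3 that interaction was called (-1.01, adjusted p = 0.00331).

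Nfil3 and Zeb2, which oppose each other in the cDC1 circuit, differed between the sources in opposite ways. Nfil3 (chr13:52967209-52982878) had 13.5, 12 and 16.8 CPM in cultured MDP and 12.9, 16.6 and 14.1 in cultured pre-cDC1, and 15.3, 17.3 and 11.9 in marrow MDP before 2.61, 2.27 and 3.17 in marrow pre-cDC1. It fell in marrow alone, and the 3 marrow pre-cDC1 libraries lay below all 9 others. Zeb2 (chr2:44983512-45117442) had 536, 498 and 572 CPM in cultured MDP and 40.9, 16.1 and 68.3 in cultured pre-cDC1, and 421, 418 and 775 in marrow MDP before 621, 559 and 534 in marrow pre-cDC1. It fell in culture alone, where the libraries lay below all 9 others, and the marrow pre-cDC1 values lay within the range of marrow MDP. The interactions were 2.55, SE 0.30, adjusted p = 0.000924 for Nfil3 and -3.72, SE 0.59, adjusted p = 0.00368 for Zeb2.

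The factors Irf4, Klf4, Tcf4, Bcl11a and Spib of the sister lineages rose in marrow and had a lower step in culture. Irf4, the cDC2 and B lineage factor, was at 0 in all 3 marrow MDP libraries and at 49.1, 49.6 and 73.2 CPM in marrow pre-cDC1, a rise of at least 2050-fold. In culture it went from 1.57, 7.56 and 4.25 to 12.8, 10.5 and 12.9 CPM, and the culture step was lower by at least 758-fold (adjusted p = 0.000617). Klf4 rose in both sources, from 8.57 to 14.3 CPM in culture and from 1.97 to 44.2 in marrow (interaction -3.69, SE 0.35, adjusted p = 0.000289). For both genes cultured MDP stood above marrow MDP, and cultured pre-cDC1 below marrow pre-cDC1.

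Tcf4, the E protein that maintains pDC, had 641, 657 and 539 CPM in cultured MDP and 336, 217 and 344 in cultured pre-cDC1. In marrow MDP it had 472, 469 and 415 and in marrow pre-cDC1 818, 693 and 1542. The libraries separated in both sources, downward in culture and upward in marrow (interaction -2.15, SE 0.38, adjusted p = 0.00594). Bcl11a, needed for pDC, showed no called change in culture and rose in marrow (interaction -2.05, SE 0.26, adjusted p = 0.0013). Spib rose in marrow from values of 0, 0.861 and 0 to 41.9, 42.8 and 48.7 CPM and was at 2.16, 6.06 and 5.23 in cultured pre-cDC1 (interaction -6.62, SE 1.27, adjusted p = 0.0087). Its size leans on 1 marrow MDP library, since without replicate 2 it became -12.72.

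Among the remaining factors, Zbtb46 and Bcl6, a repressor used by cDC1 precursors, rose in both sources and rose less in culture, where MDP began higher. Zbtb46 went from a mean of 23.5 ± 9.38 to 142 ± 15.4 CPM in culture and from 2.699 ± 0.751 to 79.3 ± 18.3 in marrow (SD, n = 3), with an interaction of -2.24, SE 0.40, adjusted p = 0.00609. For Bcl6 the interaction was -1.31, SE 0.21, adjusted p = 0.00412. Runx3 was the other factor besides Nfil3 with a higher culture step, rising in culture alone (1.66, SE 0.28, adjusted p = 0.00469). The myeloid factor Cebpb fell in both sources and fell more in culture (interaction -1.37, SE 0.22, adjusted p = 0.00363). Gfi1, a granulocyte repressor, was at 0 in all cultured pre-cDC1 libraries and at 0.949, 0.824 and 1.97 CPM in marrow pre-cDC1, so that the culture step was lower by at least 7.24-fold (adjusted p = 0.0142). Ikzf1, Stat5a and Stat5b had small negative interactions of -0.83, -0.92 and -0.72. A fit of all libraries, here and below, held 43, without the 4 of other groups whose title and file name differ. When all libraries shared 1 fit, the calls of Cebpb, Gfi1 and Stat5b were lost (adjusted p = 0.475, 0.162 and 0.112), and that of Gfi1 also with limma-voom (0.202). Spi1, which encodes PU.1, rose in both sources with an interaction of 0.21, SE 0.18, adjusted p = 0.487, not called.

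**Figure D3:**
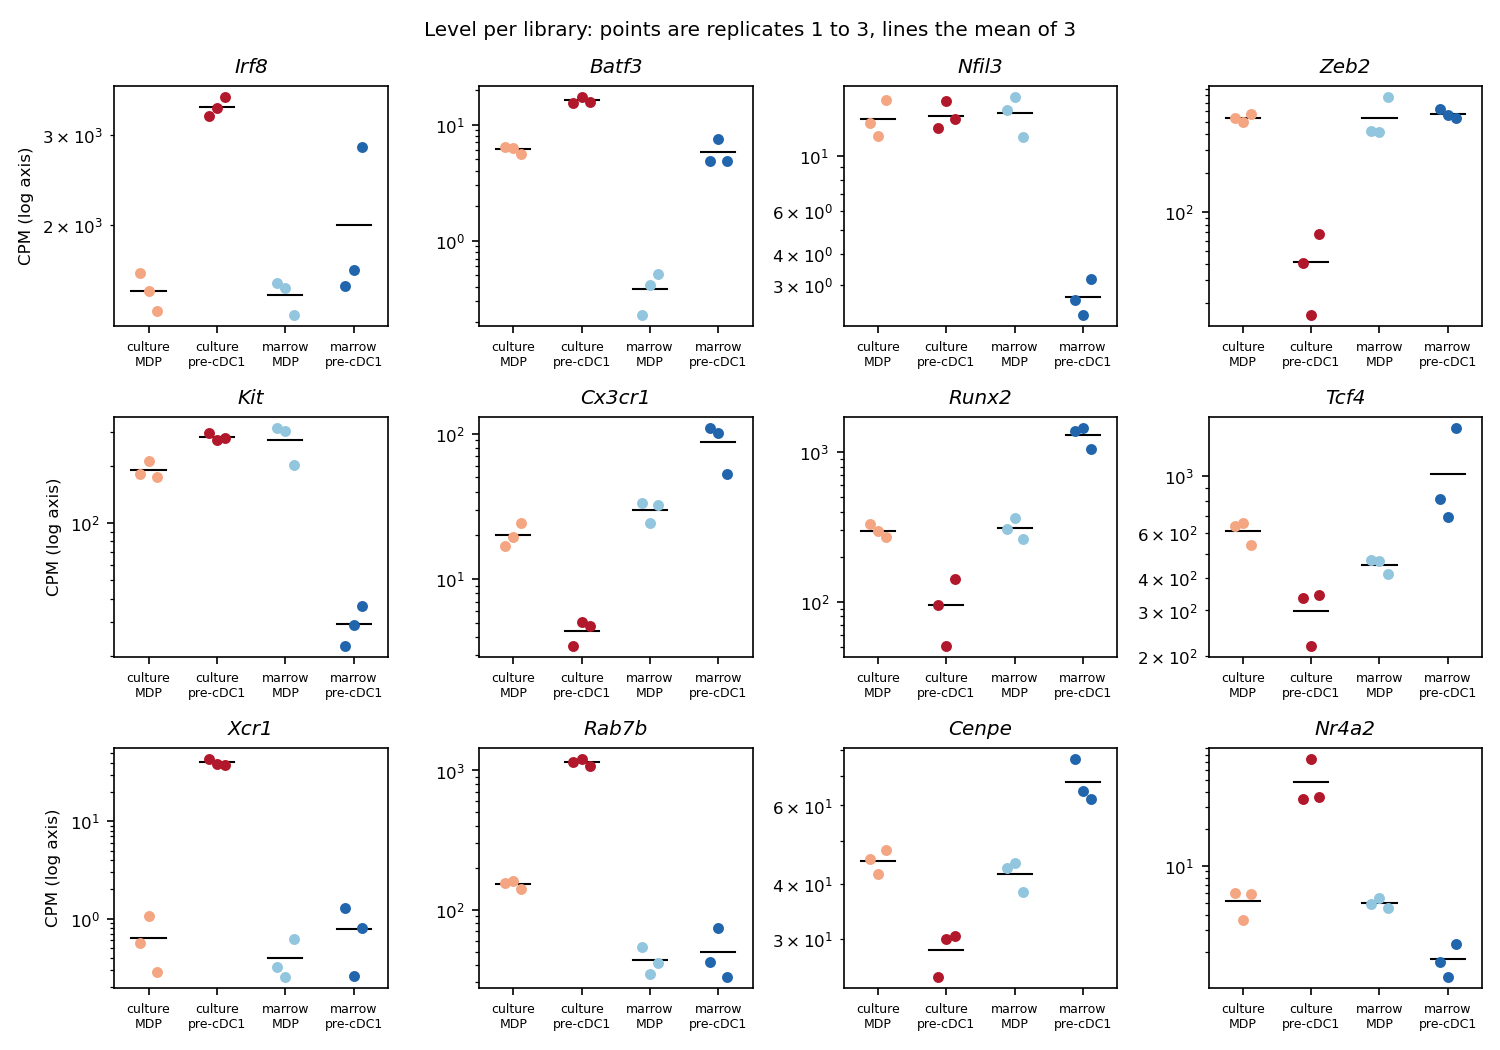
CPM per library on a log axis for 12 genes, with points for replicates 1 to 3 of each group and a line at the mean. Nfil3 and Kit are low only in marrow pre-cDC1 and Zeb2 only in cultured pre-cDC1; Irf8 and Tcf4 show marrow pre-cDC1 replicate 3 above the other 2.

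More of the cDC1 identity genes rose in culture than in marrow. Of the 23 cDC1 identity genes 20 rose in the culture step and 10 in the marrow step, and none fell in either. The interaction was called higher for 8 and lower for 2, beside 4.78% and 6.64% of all genes. Its median was 0.80 beside -0.06 over all genes tested, and 15 of the 23 fitted values were above 0. At an unadjusted p below 0.05 by edgeR 10 were higher and 5 lower, beside 3247 of all 12043 genes in either direction. The higher count was 6 to 8 with 1 library left out and 5 with a replicate block. It was 4 of 13 with genes of at least 0.8 counts per exonic base left out. DESeq2 called 10 higher and 5 lower. By stage, 11 of the 23 were already higher in cultured than in marrow MDP and 17 in cultured than in marrow pre-cDC1.

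Several cDC1 identity genes rose in culture without a call in marrow. Xcr1 (chr9:123852315-123862029) was at 0.562, 1.07 and 0.281 CPM in cultured MDP and rose to the values given above, while marrow MDP had 0.317, 0.2499 and 0.625 and marrow pre-cDC1 overlapped it. Its interaction was 5.0, SE 0.80, adjusted p = 0.00401. Rab7b, a small GTPase of endosomes, had 155, 162 and 139.7 CPM in cultured MDP and 1144, 1211 and 1081 in cultured pre-cDC1, and 54.3, 34.7 and 41.7 in marrow MDP before 42.5, 74.2 and 32.6 in marrow pre-cDC1. All cultured libraries were above all marrow ones, and the marrow groups overlapped (interaction 2.76, SE 0.38, adjusted p = 0.00197).

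Snx22, a sorting nexin, went from 235 to 769 CPM in culture and from 208 to 214 in marrow (interaction 1.72, SE 0.18, adjusted p = 0.000469). Ppt1, a lysosomal thioesterase that acts in antigen handling by cDC1, had an interaction of 1.32, SE 0.19, adjusted p = 0.00279. Wdfy4, required for cross-presentation, went from 83.5 to 222 CPM in culture and from 40.01 to 55.5 in marrow (interaction 0.98, SE 0.25, adjusted p = 0.028). That call was lost without cultured pre-cDC1 replicate 1 or 2, cultured MDP replicate 2, or replicate 2 of either marrow group (adjusted p = 0.0524 to 0.0683). Rtl8b also passed, but it has near-identical neighbours between which reads can be split, and its value is uncertain.

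Other cDC1 genes had no called interaction, or rose more in marrow. Rab43, a small GTPase that serves cross-presentation, rose by 2.08 in culture and 2.06 in marrow on the log2 scale. Its interaction was 0.01, SE 0.24, adjusted p = 1, although the levels differed by source: Rab43 was at 547, 628 and 567 CPM in cultured and 234, 262 and 377 in marrow pre-cDC1. Besides Batf3, Clec9a was the cDC1 identity gene with a called lower culture step, rising in marrow from 8.18, 13.8 and 8.79 to 234, 168 and 220.5 CPM, against 47.3, 41.4 and 25 to 193, 168 and 209 in culture (interaction -1.97, SE 0.36, adjusted p = 0.00697). The pre-cDC1 groups overlapped and the MDP groups did not. Cadm1 and Tlr3, an adhesion molecule and the receptor for double-stranded RNA of cDC1, were at 0 in marrow MDP and low in marrow pre-cDC1 (9.66, 5.77 and 7.76 and 1.25, 5.41 and 6.37 CPM), beside 325, 270.4 and 236 and 183, 269 and 202 in cultured pre-cDC1, and neither interaction was called (adjusted p = 0.193 and 0.0819). Leaving out replicate 1 of marrow pre-cDC1, Tlr3 was called (adjusted p = 0.0141). Leaving out replicate 3 of cultured MDP, Cadm1 was called (adjusted p = 0.00614). DESeq2 called both, with adjusted p = 0.00194 for Tlr3 and 0.00553 for Cadm1, each toward a smaller rise in culture. Both marrow steps start from 0 counts in marrow MDP, so the size of each interaction depends on how 0 counts are treated. Over the fits it ran from -5.96 to -3.27 for Cadm1 and from -5.97 to -3.38 for Tlr3.

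Of the called cDC2 and pDC genes every one was lower in the culture step. Of 15 cDC2 genes tested 8 were lower in the culture step and none higher, with a median interaction of -2.64. In marrow 8 rose and none fell, and in culture 2 rose and 5 fell. Of 15 pDC genes 8 were lower and none higher, with a median of -3.66, or -3.17 with genes at 0 counts taken at their bound. In marrow 9 pDC genes rose and 1 fell, and in culture 1 rose and 5 fell. By edgeR at an unadjusted p below 0.05 the counts were 10 lower and 0 higher for cDC2 genes and 12 lower and 0 higher for pDC genes. Of all 12043 genes tested 3247 had an unadjusted interaction p below 0.05, in either direction.

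Runx2, a factor that also controls the exit of pDC from marrow, had 329, 299 and 271 CPM in cultured MDP and 95.6, 50.5 and 142 in cultured pre-cDC1. In marrow it had 307, 363 and 263 in MDP and 1379, 1453 and 1058 in pre-cDC1. The MDP groups overlapped and the pre-cDC1 groups lay on opposite sides of them, so that Runx2 fell in culture and rose in marrow (interaction -3.66, SE 0.43, adjusted p = 0.000808). Siglech, a surface lectin of pDC and of some dendritic precursors, rose in marrow from 4.64, 12.7 and 1.91 to 76.7, 81.9 and 198 CPM and went from 53.6, 53.9 and 52.4 to 38.5, 47.9 and 33.3 in culture, not called (interaction -4.57, SE 0.79, adjusted p = 0.00569). Irf7, the interferon factor that pDC express at a high level, rose in both sources and more in marrow (interaction -2.75, SE 0.58, adjusted p = 0.0135).

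Cx3cr1, the fractalkine receptor of MDP, monocytes and cDC2, had 16.8, 19.4 and 24.4 CPM in cultured MDP and 3.45, 5.05 and 4.73 in cultured pre-cDC1, and 33.5, 24.4 and 32.4 in marrow MDP before 109.6, 102 and 53.2 in marrow pre-cDC1. It fell in culture and rose in marrow with no overlap in either source (interaction -3.70, SE 0.40, adjusted p = 0.00058). Sirpa, the signal regulatory protein that marks cDC2, fell in culture from 669.7, 434 and 405 to 188, 208 and 200.3 CPM with no called change in marrow (interaction -1.56, SE 0.30, adjusted p = 0.00919). Cd7 rose in marrow from 1.16 to 47.03 CPM and was at 14.9 and 18.6 in culture, not called (-4.95, SE 0.45, adjusted p = 0.000253).

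The clearest difference among progenitor receptors was in Kit. Kit (chr5:75574987-75656722), the stem cell factor receptor, had 180.1, 212 and 175 CPM in cultured MDP and 297, 272 and 280.5 in cultured pre-cDC1. In marrow it had 315, 302 and 200.4 in MDP and 22.4, 29 and 36.7 in pre-cDC1. It rose in culture (0.63, SE 0.20, adjusted p = 0.0406) and fell in marrow (-3.22, SE 0.21, adjusted p = 4.29e-06), and the 3 marrow pre-cDC1 libraries were below all others. The interaction was 3.84, SE 0.29, adjusted p = 9.88e-05.

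Of 13 growth factor receptors tested 2 had a higher and 3 a lower culture step. Csf2rb, the shared beta chain of the GM-CSF, IL-3 and IL-5 receptors, rose in culture from 195, 155 and 152 to 566, 648 and 577 CPM and was at 149, 167 and 152 and 209, 194 and 185 in marrow (interaction 1.55, SE 0.17, adjusted p = 0.000645). Csf1r, the M-CSF receptor, fell in culture from 81.6, 86.9 and 90.97 to 21.2, 22.02 and 46.7 CPM with no called change in marrow (interaction -2.11, SE 0.38, adjusted p = 0.00629). Csf3r, the G-CSF receptor, was at 0 in the cultured pre-cDC1 libraries and at 3.97, 13.4 and 7.12 CPM in marrow pre-cDC1, so that the culture step was lower by at least 75.3-fold (adjusted p = 0.00258, and 0.121 when all libraries shared 1 fit). Il10ra rose in both sources and less in culture (-1.47, SE 0.22, adjusted p = 0.00289). Flt3 rose by 0.64 in culture and 0.42 in marrow, and its interaction was 0.22, SE 0.18, adjusted p = 0.462, not called.

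The stem and progenitor list fell in both sources, 11 of 14 members tested in culture and 12 in marrow. The interaction was called higher for 2, Kit and Cd34, and lower for 2, a count of 5 without cultured pre-cDC1 replicate 3 and of 1 without marrow pre-cDC1 replicate 1 or 2. Cd34, the sialomucin of progenitors, fell from 389 to 64.8 CPM in culture and from 839 to 58.2 in marrow, ending at a like level from a higher start in marrow (interaction 1.31, SE 0.27, adjusted p = 0.0123). Cd93, a progenitor and endothelial surface protein, fell more in culture (-1.17, SE 0.25, adjusted p = 0.0156). When all libraries shared 1 fit, the adjusted p of Cd93 was 0.125.

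Several monocyte and granulocyte genes had a lower step in culture than in marrow. Of 16 monocyte and macrophage genes tested the interaction was called lower for 6 and higher for 1. In culture 2 of these 16 rose and 4 fell, while in marrow 6 rose and 2 fell. Of 16 neutrophil and granule genes the interaction was called lower for 4 and higher for none, or lower for 1 when all libraries shared 1 fit. In culture 1 of these rose and 9 fell, and in marrow 2 rose and 7 fell. F13a1, the coagulation factor XIII chain abundant in monocyte progenitors, had 438, 578 and 846 CPM in cultured MDP and 0.418, 5.87 and 10.8 in cultured pre-cDC1, and 2204, 2245 and 1823 in marrow MDP before 639, 648 and 362 in marrow pre-cDC1. It fell in both sources, and its interaction was -4.80, SE 0.96, adjusted p = 0.0106. Ly6c2, the Ly6C antigen of monocytes, fell in culture from 82.7, 103 and 128 to 11.8, 8.82 and 5.01 CPM and was at 271, 213 and 335 and 545, 532 and 258 in marrow, where the groups overlapped (interaction -4.27, SE 0.51, adjusted p = 0.000937). Fcgr3 was the 1 member of the list with a higher culture step, through a deeper fall in marrow (2.05, SE 0.34, adjusted p = 0.00481). When all libraries shared 1 fit, the adjusted p of Fcgr3 was 0.135.

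Mpo, myeloperoxidase of neutrophil granules, fell from 97.7, 104 and 125 to 0.557, 1.44 and 0 CPM in culture and from 99.6, 118 and 150.1 to 26.3, 31.4 and 21.2 in marrow (interaction -5.11, SE 0.83, adjusted p = 0.00419). Elane, neutrophil elastase, was at 0 in all cultured pre-cDC1 libraries and at 2.02, 4.02 and 0.744 CPM in marrow pre-cDC1, and its culture step was lower by at least 29.9-fold (adjusted p = 0.0102, and 0.0852 when all libraries shared 1 fit). Summed over the 16 granule genes the level was 12.93 to 33.44 CPM in cultured and 161.3 to 223.6 CPM in marrow pre-cDC1, beside 266.0 to 347.7 and 488.0 to 529.2 CPM in the MDP. Granule transcripts are abundant in marrow at large, and the part of RNA from other marrow cells in these values was not tested.

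The interaction was called for 10 mitosis genes and for no DNA replication gene. Of 20 mitosis genes the interaction was called lower for 10 and higher for none, with a median of -0.72, and all 20 fitted values were below 0. In marrow 12 of the 20 rose and none fell, while in culture 5 fell and none rose. Of 23 DNA replication genes none was called in the interaction, with a median of -0.09. At an unadjusted p below 0.05 by edgeR 1 was lower and 2 higher, beside 3247 of all 12043 genes in either direction. DESeq2 called 2 higher and 1 lower, limma-voom with sample weights 2 and 2, and without marrow pre-cDC1 replicate 3 edgeR called 1 lower. They fell in both sources, 14 in culture and 10 in marrow. At the MDP stage 1 mitosis gene was called lower in culture, and at the pre-cDC1 stage 19 of 20.

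Cenpe, a kinesin of the kinetochore, had 45.4, 41.9 and 47.7 CPM in cultured MDP and 24.6, 29.9 and 30.4 in cultured pre-cDC1, and 43.5, 44.5 and 38.3 in marrow MDP before 76.4, 64.8 and 61.96 in marrow pre-cDC1. It fell in culture and rose in marrow without overlap (interaction -1.31, SE 0.19, adjusted p = 0.00244). Mki67, the proliferation marker Ki-67, had 104, 109.8 and 111 and 105, 106 and 92.7 CPM across the culture step, not called, and rose in marrow from 76.3, 91.7 and 80.3 to 180.5, 169.6 and 156 (interaction -1.08, SE 0.16, adjusted p = 0.00289). Kif11, the motor that separates the spindle poles, and Hmmr, a spindle protein, each fell in culture and rose in marrow, with interactions of -0.91, SE 0.19, adjusted p = 0.0126 and -1.14, SE 0.23, adjusted p = 0.00976. Bub1b, Plk1, Nusap1, Cenpf and Top2a rose in marrow with no called change in culture, and Bub1, a checkpoint kinase, fell in culture alone.

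In contrast Mcm6 and Mcm7, subunits of the replicative helicase, fell in both sources. Mcm6 went from 949 to 554 CPM in culture and from 965 to 466 in marrow, and its interaction of 0.32 was not called (adjusted p = 0.137). For Mcm6 and Mcm7 it was called, in the direction of a smaller fall in culture, with DESeq2, with limma-voom and without replicate 3 of both marrow groups (adjusted p = 0.0257 to 0.0479). The mitosis effect is small per gene and its count moved with the fit. It was 5 without cultured pre-cDC1 replicate 1, without marrow pre-cDC1 replicate 1 or without marrow pre-cDC1 replicate 2, and 6 without cultured pre-cDC1 replicate 3 or without cultured MDP replicate 2 or 3. It was 14 without marrow pre-cDC1 replicate 3, 6 with a replicate block and 2 when all 43 libraries shared 1 fit, with none called higher in any of these. Cenpe, Mki67, Kif11, Hmmr and Nusap1 kept their calls in each fit that left out 1 library and lost them when all libraries shared 1 fit, while Bub1, Bub1b, Plk1, Cenpf and Top2a lost theirs in 4 to 10 of the 12 fits that left out 1.

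**Figure D4:**
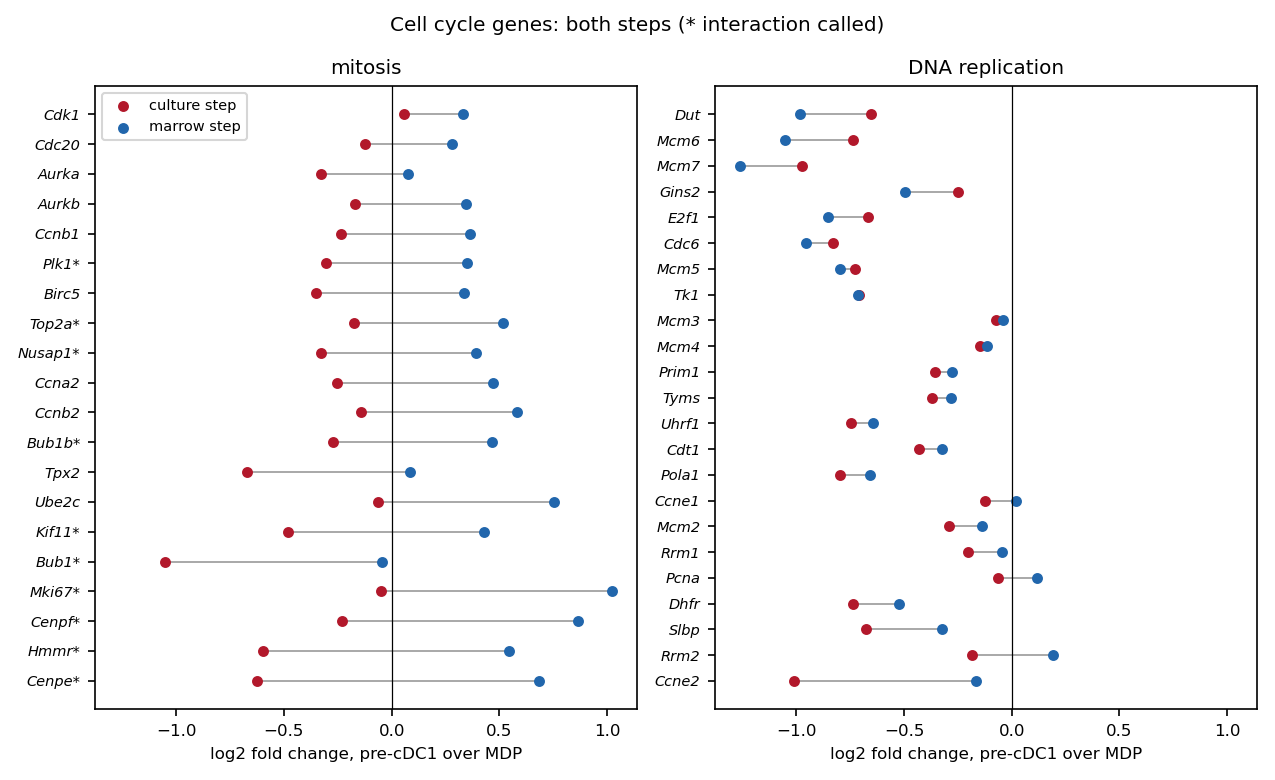
Culture step (red) and marrow step (blue) of each mitosis and DNA replication gene, as log2 fold change of pre-cDC1 over MDP, ordered by the interaction; an asterisk marks the 10 genes whose interaction was called. The 20 mitosis genes have the culture step left of the marrow step, while the 23 replication genes show both orders.

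The promoters of mitosis genes often carry the cell cycle genes homology region, through which repressor and activator complexes confine their transcription to the late cell cycle. RefSeq promoters of GRCm38.p6, 250 bases before to 50 after the start, were searched on both strands for TTTGAA, whose reverse complement is TTCAAA. It was present in 12 of the 17 mitosis genes with a promoter in the table (70.6%), in 1 of 19 DNA replication genes (5.26%) and in 1213 of 9773 genes tested (12.4%). Of the 10 mitosis genes called, 7 had it. These letters describe the sequence and do not show binding. The promoters of 3 called genes that hold it are shown 5′ to 3′ on the strand of the gene, with the matches in capitals, as examples of the 7 chosen after their values were seen.
Mki67 (chr7:135716330-135716629, - strand): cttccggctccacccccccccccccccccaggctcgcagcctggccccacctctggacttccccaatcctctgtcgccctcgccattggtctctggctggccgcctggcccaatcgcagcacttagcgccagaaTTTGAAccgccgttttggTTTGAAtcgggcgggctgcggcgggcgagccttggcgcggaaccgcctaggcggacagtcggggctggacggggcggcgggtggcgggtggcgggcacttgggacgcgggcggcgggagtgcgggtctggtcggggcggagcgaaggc
Kif11 (chr19:37376132-37376431, + strand): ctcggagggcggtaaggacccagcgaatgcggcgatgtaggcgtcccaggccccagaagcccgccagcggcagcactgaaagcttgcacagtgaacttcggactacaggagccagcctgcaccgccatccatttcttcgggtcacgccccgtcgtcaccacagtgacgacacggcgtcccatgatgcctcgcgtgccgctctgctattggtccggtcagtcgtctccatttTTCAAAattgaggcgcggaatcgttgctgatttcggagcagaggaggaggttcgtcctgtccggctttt
Hmmr (chr11:40733388-40733687, - strand): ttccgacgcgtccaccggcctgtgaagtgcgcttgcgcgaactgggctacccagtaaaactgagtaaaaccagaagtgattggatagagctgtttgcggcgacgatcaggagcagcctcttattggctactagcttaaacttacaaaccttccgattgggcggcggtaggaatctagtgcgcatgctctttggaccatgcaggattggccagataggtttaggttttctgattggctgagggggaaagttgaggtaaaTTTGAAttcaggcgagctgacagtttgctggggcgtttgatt

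Stress and immediate early genes were mixed in direction. Of 24 immediate early and NF-kB feedback genes 13 rose in culture and 12 in marrow, and the interaction was called higher for 3 and lower for 7. Fos, an AP-1 subunit, had 9.32, 10.2 and 8.78 CPM in cultured MDP and 55.8, 49.6 and 56.1 in cultured pre-cDC1, and 3.33, 2.83 and 3.12 in marrow MDP before 4.62, 4.43 and 4.82 in marrow pre-cDC1. It rose in both sources without overlap and rose more in culture (1.98, SE 0.18, adjusted p = 0.000269). Jund, another AP-1 subunit, did likewise (1.79, SE 0.27, adjusted p = 0.00311). Nr4a2, an orphan nuclear receptor induced by signalling, went from 6.01, 3.59 and 5.93 to 34.9, 73.96 and 36.3 CPM in culture and from 4.85, 5.44 and 4.52 to 1.66, 1.24 and 2.297 in marrow, up in one and down in the other (4.77, SE 0.49, adjusted p = 0.00045). When all libraries shared 1 fit its adjusted p was 0.0939.

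Among the lower genes, some rose in both sources from a higher start in cultured MDP. Ier5, an immediate early response gene, went from 10.3, 9.71 and 15.5 to 40.5, 47.3 and 41.7 CPM in culture and from 2.42, 1.86 and 1.84 to 16.2, 20.4 and 22.7 in marrow (-1.36, SE 0.29, adjusted p = 0.0152). Klf2, a zinc finger factor of quiescence and migration, went from 5.14, 4.67 and 6.32 to 20.9, 21.4 and 17.2 CPM in culture and from 1.201, 0.194 and 0.551 to 21.6, 21.2 and 12.5 in marrow (-2.87, SE 0.65, adjusted p = 0.0185). In both genes the MDP groups did not overlap. The count of 7 lower genes was 3 without cultured pre-cDC1 replicate 3 or without marrow pre-cDC1 replicate 1 or 2. It was 4 without cultured pre-cDC1 replicate 2, without cultured MDP replicate 2 or 3, or without marrow MDP replicate 1 or 2, and the count of 3 higher was 5 without marrow MDP replicate 3.

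Of 14 heat shock genes 4 were higher in the culture step and none lower. Hspa1a, an inducible HSP70, rose in culture from 4.02, 12.4 and 16.8 to 406, 349 and 336 CPM and was at 0.204, 2.56 and 8.79 and 2.73, 5.15 and 6.08 in marrow, where the groups overlapped (interaction 4.76, SE 1.23, adjusted p = 0.0308). Its neighbour Hspa1b has nearly the same sequence and nearly the same values, so that reads of the 2 cannot be told apart with certainty. The marrow MDP libraries spread widely, and the call for Hspa1a held in 4 of the 12 fits that left out 1 library. The list count ran from 0 (without cultured pre-cDC1 replicate 2, either of cultured MDP replicates 1 and 2, or marrow pre-cDC1 replicate 1) to 5 (without marrow pre-cDC1 replicate 3), and 1 was called when all libraries shared 1 fit.

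Heat shock promoters carry inverted repeats of GAA. Searched as GAANNTTC or TTCNNGAA, each its own reverse complement, they were present in 6 of the 11 heat shock genes with a promoter in the table (54.5%) and in 1154 of 9773 genes tested (11.8%). The Hspa1a promoter is shown with its match in capitals, because this gene is the member whose values are given above.
Hspa1a (chr17:34972107-34972406, - strand): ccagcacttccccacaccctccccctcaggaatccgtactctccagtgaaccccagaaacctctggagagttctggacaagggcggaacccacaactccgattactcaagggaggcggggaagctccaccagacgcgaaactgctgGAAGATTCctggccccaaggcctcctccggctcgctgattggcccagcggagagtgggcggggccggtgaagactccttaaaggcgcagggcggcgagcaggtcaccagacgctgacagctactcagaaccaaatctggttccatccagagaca

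Genes of the integrated stress response were split as well, 3 of 19 higher and 5 lower. Slc7a5, the light chain of an amino acid transporter, fell in marrow from 32.6, 35.5 and 29.5 to 16.2, 14.3 and 21.4 CPM and was at 56.4, 58.4 and 64.4 and 59.05, 58.7 and 61.3 in culture, not called (0.95, SE 0.20, adjusted p = 0.014). Its heavy chain Slc3a2 also fell in marrow alone (0.65, SE 0.13, adjusted p = 0.00915). The count of 3 higher was 0 when all libraries shared 1 fit. Sesn2, a sestrin that restrains mTORC1 when amino acids are short, rose in marrow from 4.46, 5.72 and 6.397 to 17.9, 16.1 and 13.2 CPM and was at 38.8, 32.6 and 36.4 and 29.3, 27.2 and 27.5 in culture, not called (-1.83, SE 0.24, adjusted p = 0.00132). Cebpg and Ddit3 fell in culture and rose in marrow (-1.46, SE 0.20, adjusted p = 0.00206 and -1.52, SE 0.34, adjusted p = 0.0179). At either stage 12 of the 19 genes were called higher in culture than in marrow.

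Most MHC class II genes rose in both sources. Of 12 MHC class II genes tested 10 rose in culture and 11 in marrow, and the interaction was called higher for 1 and lower for 2, beside 4.78% and 6.64% of all genes. Without marrow pre-cDC1 replicate 3 the count of higher genes was 4, and without marrow MDP replicate 2 the count of lower genes was 4. H2-Ob, a chain of the peptide loading modulator H2-O, rose in culture from 21.9, 26.9 and 34.9 to 75.8, 81.3 and 68.8 CPM and was at 9.74, 14.9 and 7.61 and 7.17, 5.92 and 9.09 in marrow (2.02, SE 0.36, adjusted p = 0.00621). H2-Aa, a class II alpha chain, rose in both and less in culture (-1.69, SE 0.38, adjusted p = 0.0174), as did Ifi30, a thiol reductase of antigen processing (-1.96, SE 0.35, adjusted p = 0.0063). The level was another matter: the 13 class II genes summed to 23620 to 27630 CPM in cultured pre-cDC1 and 1996 to 3595 CPM in marrow pre-cDC1, from 2614 to 2658 and 490.7 to 588.6 CPM in the MDP. Of 17 class I and peptide loading genes 9 rose in culture and 4 in marrow. The interaction was called for Tap1, a subunit of the peptide transporter, rising in culture from 199 to 584 CPM beside 184 and 219.5 in marrow (1.34, SE 0.16, adjusted p = 0.000924), and for no other of the 17 in the 12 libraries together. Without marrow pre-cDC1 replicate 3 the counts were 2 higher and 1 lower.

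Metabolic genes were called in the interaction at shares near or below the 11.4% of all genes, and lysosomal genes at 21.7%. Of 21 cholesterol genes 8 rose in culture and 16 in marrow, none fell, and the interaction was called lower for 1, Mvd, a decarboxylase of the mevalonate pathway (-1.73, SE 0.36, adjusted p = 0.0136). The count was 5 without marrow pre-cDC1 replicate 3 and 2 without any 1 marrow MDP library. Of these genes 16 were already higher in cultured than in marrow MDP. Of 19 glycolysis and hypoxia genes 2 were higher in the culture step, or 4 without marrow pre-cDC1 replicate 3. Aldoa, aldolase, fell in marrow from 1006 to 447 CPM with no called change in culture (1.34, SE 0.29, adjusted p = 0.0147), and so did Ldha, lactate dehydrogenase (1.12, SE 0.24, adjusted p = 0.0151). Respiratory chain genes had 2 of 19 higher and none lower, or 1 higher without any of cultured pre-cDC1 replicates 1 and 2, cultured MDP replicates 2 and 3, marrow pre-cDC1 replicates 1 and 2 and marrow MDP replicate 3. Among 23 lysosomal genes, of which 8 rose in culture and 14 in marrow, 4 were lower and 1 higher, the last being Ctsc, a protease activator (0.88, SE 0.20, adjusted p = 0.0201), and Ctsh, a cysteine cathepsin, among the lower (-1.08, SE 0.22, adjusted p = 0.0117). The 4 became 2 without any 1 cultured pre-cDC1 library, cultured MDP replicate 1 or 3, marrow pre-cDC1 replicate 1 or 2, or marrow MDP replicate 1, and 8 when all libraries shared 1 fit.

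Of 27 interferon-stimulated genes 2 were lower in the culture step and none higher, near the background share, and 4 without cultured pre-cDC1 replicate 3. Cmpk2, a mitochondrial nucleotide kinase induced by interferon, fell in culture from 14.4, 12.8 and 9.27 to 4.32, 3.77 and 6.88 CPM and rose in marrow from 21.5, 19.4 and 21.6 to 49.7, 49.4 and 38.6 (-2.38, SE 0.34, adjusted p = 0.00214). Pattern recognition receptors had 2 of 20 lower and none higher, 10% beside 11.4% of all genes called. The count was 1 without cultured pre-cDC1 replicate 1 or 2, cultured MDP replicate 1 or 3, or marrow MDP replicate 2. Among the 2 was Cd14, a co-receptor for lipopolysaccharide (-3.18, SE 0.59, adjusted p = 0.00726). Of 12 chemokine receptors 4 were lower and 1, Xcr1, higher. Ccr2 and Ccr1, receptors of inflammatory chemokines, rose in marrow alone (-1.24, SE 0.27, adjusted p = 0.0161 and -2.82, SE 0.55, adjusted p = 0.00951). Of 16 DC maturation genes 1 was higher and 2 lower, 18.8% beside 11.4% of all genes called. The lower count was 1 without any 1 cultured pre-cDC1 library, cultured MDP replicate 2 or 3, or marrow pre-cDC1 replicate 1 or 2. Among these, Marcksl1, an actin regulator, fell in marrow alone (1.01, SE 0.19, adjusted p = 0.00732), and Cd200, an inhibitory ligand, rose in both sources and less in culture (-4.21, SE 0.80, adjusted p = 0.00852). With limma-voom the adjusted p of Cd200 was 0.28. Summed over the 19 DC maturation genes listed, levels were 172.1 to 189.7 CPM in cultured MDP and 851.1 to 1279 CPM in cultured pre-cDC1. In marrow they were 74.45 to 96.9 CPM in MDP and 128.9 to 171.3 CPM in pre-cDC1.

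**Figure D5:**
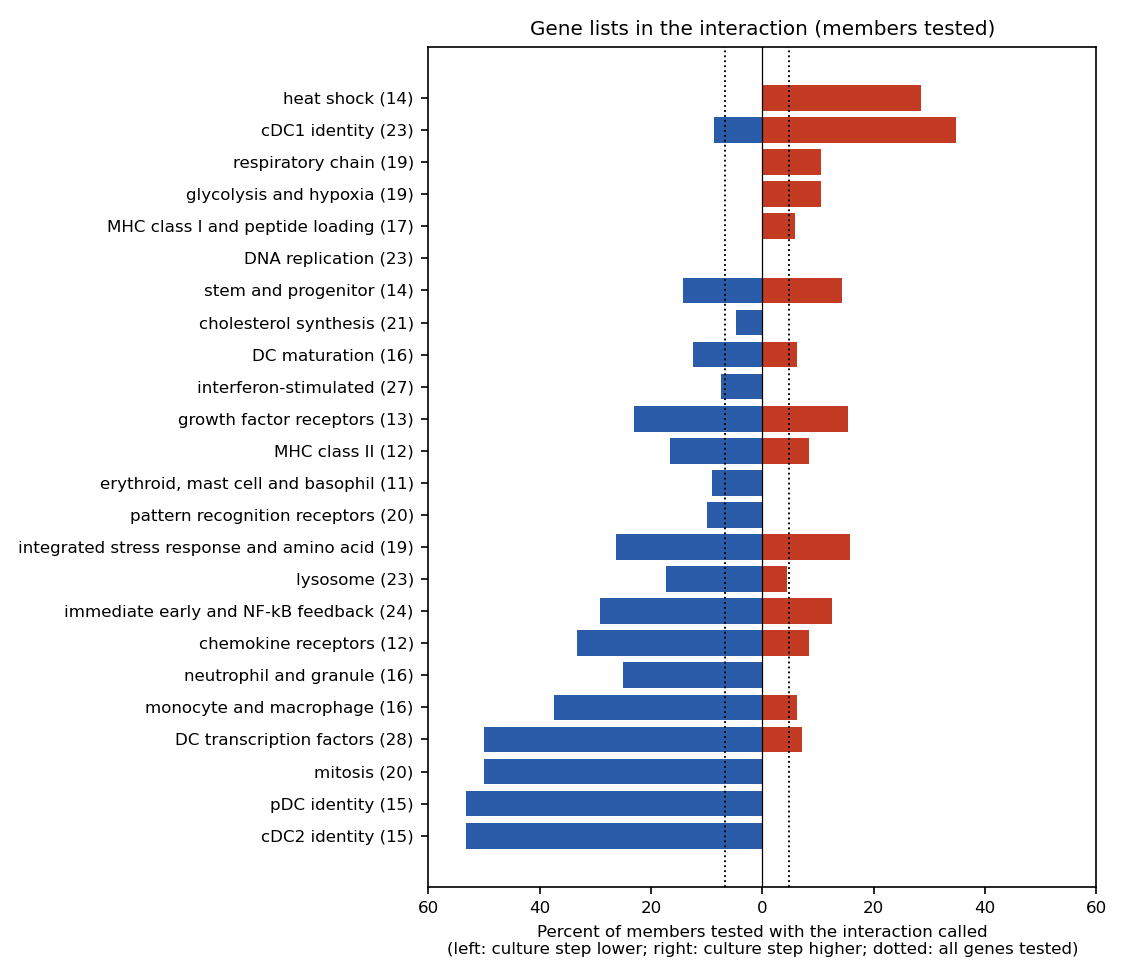
Percent of tested members of each list with a called interaction, lower in the culture step to the left and higher to the right, with the number tested in brackets and dotted lines at the shares of all genes (6.64% and 4.78%). The cDC2, pDC, mitosis and DC transcription factor lists reach farthest left and the cDC1 identity list farthest right.

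The genes with opposite called steps numbered 41 with culture up and marrow down, and 59 with culture down and marrow up. Rasgrp3, an activator of Ras, was of the first kind: it rose from 3.005, 3.01 and 2.56 to 70.4, 58.03 and 84.8 CPM in culture and fell in marrow from 1.95, 0 and 2.28 to 0 in all 3 libraries, overlapping marrow MDP through its own library at 0. Against the floor the culture step was higher by at least 784-fold (adjusted p = 0.00621). Without replicate 3 of all 4 groups its adjusted p was 0.0633. Ptger3, a receptor for prostaglandin E2, rose from 22.7, 27.4 and 21.8 to 62.95, 70.8 and 76.3 CPM in culture and fell from 12.3, 14.02 and 24.2 to 0, 0.309 and 0 in marrow (9.05, SE 0.78, adjusted p = 0.000193). The marrow pre-cDC1 value rests on 1 library, and without replicate 2 the interaction became 13.60.

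Others of that kind were Plaat3, a phospholipid acyltransferase (3.96, SE 0.50, adjusted p = 0.00121), Pde3b, a cyclic nucleotide phosphodiesterase (3.72, SE 0.57, adjusted p = 0.00324), and Nck2, a signalling adaptor (3.24, SE 0.42, adjusted p = 0.00137). Of the second kind, Upb1, an enzyme of pyrimidine breakdown, fell in culture from 2.95, 1.45 and 1.79 to 0, 0 and 0.466 CPM and rose in marrow from 1.54, 1.92 and 3.35 to 37.4, 33.95 and 25.9 (-7.48, SE 1.19, adjusted p = 0.00377). Without cultured pre-cDC1 replicate 3, the 1 library above 0 there, its interaction was -12.76. Cd163, the haemoglobin scavenger receptor, fell from 9.83, 11.9 and 11.1 to 2.09, 3.77 and 1.47 CPM in culture and rose from 26.7, 28.1 and 32.8 to 62.2, 71.5 and 55.1 in marrow (-3.23, SE 0.39, adjusted p = 0.00094). When all libraries shared 1 fit its adjusted p was 0.137.

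Outside the lists, the largest called differences were genes at or near 0 in 1 group. Scin, the actin severing protein adseverin, was at 172, 232 and 206 CPM in cultured pre-cDC1 and fell in marrow from 3.56, 10.3 and 3.05 to 0, so that the culture step was higher by at least 72.8-fold. Fgd4, a guanine nucleotide exchange factor, fell in culture from 34.5, 46.3 and 43.2 CPM to 0 and was at 20.8, 14.7 and 8.8 in marrow pre-cDC1, lower in the culture step by at least 659.7-fold. Bhlhe40, a repressor of the circadian and immune response, was at 0 in marrow MDP and at 38.5, 47.3 and 48.5 CPM in marrow pre-cDC1, beside 4.94, 1.85 and 9.76 and 20.7, 18.3 and 26.3 across the culture step, lower there by at least 407-fold. Stox2, at 31.1, 17.8 and 10.7 CPM in marrow pre-cDC1 and 0 in cultured pre-cDC1, was lower by at least 313-fold. Their adjusted p-values were 0.00377, 0.000184, 0.00105 and 0.00219, the last 0.146 when all libraries shared 1 fit.

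Summed markers of unrelated cells were low beside the cDC1 and pDC sums. Of 12 B cell genes 3 passed the filter on low counts and none was called in the interaction, and the 12 summed to 41.11 to 60.18 CPM in marrow and 4.933 to 12.39 CPM in cultured pre-cDC1. Of 14 T, NK and innate lymphoid genes 7 passed and none was called, with sums of 12.11 to 19.74 CPM in marrow pre-cDC1 and 4.907 to 14.35 CPM in cultured pre-cDC1. In marrow MDP the B cell and lymphoid sums were 58.65 to 75.28 and 23.68 to 33.55 CPM. In cultured MDP they were 23.17 to 37.17 and 15.76 to 26.93 CPM. By edgeR at an unadjusted p below 0.05 these lists held 1 and 2 lower genes, and none higher. Of all 12043 genes tested 3247 had such an interaction p, in either direction. Without cultured pre-cDC1 replicate 3 each list had 1 gene called lower, as had the B cell list with DESeq2 and with limma-voom, and the second list also without cultured pre-cDC1 replicate 2. Erythroid, mast cell and basophil genes summed to 8.603 to 106.0 CPM in marrow and 1.554 to 14.98 CPM in cultured pre-cDC1. Of these genes 1 of 11 tested was called lower and none higher, 9.09% beside 11.4% of all genes called. The lower count was 0 without any 1 cultured pre-cDC1 library, cultured MDP replicate 3 or marrow MDP replicate 1 or 2, and 2 without marrow MDP replicate 3. The 106.0 CPM was marrow pre-cDC1 replicate 3 alone, beside 18.02 and 8.603 CPM in replicates 1 and 2. Of 4 sex-linked genes none was called in the interaction or in either step, and none had an unadjusted interaction p below 0.05 by edgeR. Without marrow pre-cDC1 replicate 3, or without marrow MDP replicate 1, 1 of the 4 was called lower, as with limma-voom.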

How the data were processed

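Per the labels' protocols, total RNA of some 1500 to 10000 cells went into SMART-Seq HT amplification, followed by Nextera XT library preparation. The files hold expected counts for 21000 genes as deposited by the authors, with 1 file for each library. Tools named in the submitters' processing notes are RSEM 1.3.3, STAR 2.7.7a and Picard 2.25.0, and the named builds are GRCm38 and mm10, none with a role. The sources used here do not state whether duplicate reads were removed. Neither kit marks strand or adds molecular identifiers: reads of a gene and its antisense or overlapping partner cannot be told apart, and floors cover counting error only.

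Expected counts were rounded and tested in R 4.3.3 with edgeR 4.0.16: TMM normalisation, the default filter on low counts, a group means model on the 12 libraries, the quasi-likelihood F test, Benjamini-Hochberg adjustment over 12043 genes and a threshold of 0.05. Standard errors are the absolute log2 value over the square root of F. CPM are scaled by TMM over 43 libraries, leaving out 4 of other groups whose title and file name differ. Alternatives used limma 3.58.1 and DESeq2 1.42.0. Tested on simulated data (11692 genes), the interaction test found 10 of 50 true 2-fold changes and 30 of 50 true 4-fold changes. It found 42 of 50 true 8-fold and 41 of 50 true 16-fold changes, and 5 of its 128 calls were false. Changes were put only into genes with a fitted mean of at least 50 counts, and into cultured pre-cDC1 alone. Recovery for genes of lower counts was not tested. Every pair of replicate libraries differed by more than sampling noise.

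The comparison, the 29 gene lists and the tests were chosen with earlier results of these data known. The stage-wise comparison of sources, the motifs and the choice of promoters were added after values were seen. Genes were named by rule: the DC transcription factors; the 8 largest called interactions in each direction among genes of at least 10 CPM in a group and without library overlap in a source; up to 8 per direction with opposite called steps; and up to 4 per list by adjusted p. Some of these are given by count alone, among them list members whose call was lost with 1 library left out; other genes named were chosen after their values were seen. Of same-numbered pairs of libraries 0 of 18 correlated above 0.1 in their deviations, and of other pairs 3 of 36. With 3 libraries a group this cannot exclude a shared animal, culture or preparation. Gene positions and promoters are RefSeq's for GRCm38.p6.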

Additional observations from a re-analysis of the deposited data

Results flagged for a closer look

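The difference between the 2 sources under the same contrast, tested as the interaction, was called for 1376 genes, and for 100 of them the steps were themselves called in opposite directions. Among those with culture up and marrow down, ranked by the smaller of the 2 steps, the log2 interactions, with groups at 0 counts set to their floor, were 9.62 for Rasgrp3, 3.96 for Plaat3, 3.72 for Pde3b, 9.05 for Ptger3, 4.77 for Nr4a2, 2.74 for Slc16a6, 2.30 for Cpq and 3.24 for Nck2. Among those with culture down and marrow up they were -18.35 for Fcer2a, -7.48 for Upb1, -3.66 for Runx2, -3.70 for Cx3cr1, -3.31 for Rflnb, -2.75 for Hacd4, -2.38 for Cmpk2 and -3.23 for Cd163.

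The value for Fcer2a, the low affinity IgE receptor, rests on 1 count in a group and is no bound. Cultured MDP held 27.8, 4.46 and 2.703 CPM, cultured pre-cDC1 1 count in all, marrow MDP 0 and marrow pre-cDC1 15.5, 0 and 12.3 CPM, so that the marrow groups overlap. The culture ratio of MDP over pre-cDC1 was 1020 with a 95% exact interval of 182.7 to 40310, which covers counting error only. Groups of 3 libraries were not tested for outlying samples.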

How the results depend on the processing

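The interaction count of 1376 was 2430 with DESeq2, 2675 with limma-voom sample weights, 2409 without replicate 3 of both marrow groups and 806 with 2183 genes of at least 0.8 counts per exonic base left out; leaving out 1 library at a time gave 861 to 1893. The culture count of 2801 was 4303 with sample weights and 1838 with the dense genes left out, and 1933 to 3134 with 1 library left out; the marrow count of 4173 was 3208 to 4421. With the replicate block the counts were 977, 2315 and 3763, although no label states that the numbers pair the libraries. The 43 libraries of the series whose title and file name did not differ, in 1 fit, gave 1008, 1935 and 3182. In that fit 61.7% of culture calls and 63.0% of marrow calls were higher, against 48.1% and 52.2%. DESeq2 size factors, no filter on low counts and leaving out replicate 3 of all 4 groups kept each count within 1.5 times. Of 94 called interactions of named genes 56 kept their call under every alternative and 86 with any 1 library left out, and none changed sign. The uncalled one of Rab43 did, at -0.037 with all libraries in 1 fit and -0.10 to 0.23 with 1 library left out. Sample weights were lowest for marrow pre-cDC1 replicate 3 (0.244) and marrow MDP replicate 3 (0.392). The causes were not tested. Dense genes named above, with 0.8 counts or more per exonic base, include Irf8, Kit, Zeb2, Runx2, Tcf4, Rab7b, Siglech and Snx22. Many 2-fold differences, and some of 8-fold and 16-fold, were missed in the simulation, in which depth was not varied.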
